A study of Mus musculus with 26 samples.

Results

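Amacrine cells that carried Gad1 without Slc6a9 were compared with amacrine cells that carried Slc6a9 without Gad1, among 26 single mouse retinal cells profiled on 1 Affymetrix Mouse 430 2.0 array each. A cell belonged to the Gad1-only side when its Gad1 signal was at least 1000 and its Slc6a9 signal was below 1000. The Slc6a9-only side was defined the other way round. This gave 10 Gad1-only cells and 13 Slc6a9-only cells, 23 of the 26, and left out 1 cell with both genes and 2 cells with neither. A signal is the intensity of a probe set after MAS5 scaling, and 1000 is the level called detected throughout.

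The retinas had received a GFP reporter driven by Ndrg4 or Synapsin promoter sequence (pNdrg4 or pSynapsin). It was given by electroporation, described as at P0, in the animal or in the dish. How P0 applies to the cell labelled E19, from a retina cultured for 4 days, was not stated. Fluorescent cells were picked by hand after papain dissociation, and their cDNA went through 35 cycles of PCR before hybridisation. The Gad1-only side held 1 E19 pSynapsin cell and 2 P4 pNdrg4 cells from retinas cultured for 4 days, 1 P5 pNdrg4 cell from a retina cultured for 5 days, and 6 P5 pNdrg4 cells without a stated culture. The Slc6a9-only side held 3 P5 pNdrg4 and 4 P5 pSynapsin cells cultured for 5 days, 2 P8 pNdrg4 and 2 P8 pSynapsin cells cultured for 8 days, and 2 P5 pNdrg4 cells without a stated culture. The sides therefore differed in makeup: 9 of 10 Gad1-only cells carried pNdrg4 against 7 of 13 Slc6a9-only cells, 4 against 11 had a stated culture, and the P8 group had cells of the Slc6a9-only side alone, 4 in number. Each sample was 1 cell and no animal was named, so a side stands for 1 sample. There are hence no p-values here, SDs describe the spread over cells, and the number of arrays limits the precision. Because Gad1 and Slc6a9 chose the cells on these same arrays, all values below are a description.

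Amacrine cells are the inhibitory interneurons of the inner retina, and nearly all of them release GABA or glycine. GABA is made from glutamate by the enzymes encoded by Gad1 and Gad2. Glycine is not made by a dedicated enzyme in these cells but is taken up by the transporter GlyT1, the product of Slc6a9. Both transmitters enter synaptic vesicles through the same carrier, VGAT, encoded by Slc32a1. GABAergic amacrine cells tend to be wide-field cells and glycinergic ones narrow-field cells such as the AII cell of the rod pathway.

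Upstream sequence is shown for Gad1 and Slc6a9, which chose the sides, and for Kcnip1 and Lamp5, whose detection was among the most closely tied to the Gad1-only and to the Slc6a9-only side. The sequences are the 250 bases before an annotated start in RefSeq (GRCm38.p6), read in the gene's own direction. Where several starts are listed (3 for Kcnip1, 3 for Slc6a9 and 2 for Lamp5), the one furthest upstream was taken. They are shown because genes at least 2 log2 units apart between the sides included those of E-box binding factors of the bHLH class (Tcf4 and Nhlh2) and of an AP-2 factor (Tfap2b). Capitals mark matches to CANNTG, the E-box, or GCCNNNGGC, an AP-2 motif; both motifs read the same on either strand.
Gad1, chr2:70561879-70562128, plus strand: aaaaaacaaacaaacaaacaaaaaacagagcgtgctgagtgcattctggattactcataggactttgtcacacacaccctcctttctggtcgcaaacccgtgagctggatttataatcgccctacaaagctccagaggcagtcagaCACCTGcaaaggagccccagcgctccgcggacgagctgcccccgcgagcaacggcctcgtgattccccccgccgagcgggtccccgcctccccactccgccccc
Kcnip1, chr11:33993194-33993443, minus strand: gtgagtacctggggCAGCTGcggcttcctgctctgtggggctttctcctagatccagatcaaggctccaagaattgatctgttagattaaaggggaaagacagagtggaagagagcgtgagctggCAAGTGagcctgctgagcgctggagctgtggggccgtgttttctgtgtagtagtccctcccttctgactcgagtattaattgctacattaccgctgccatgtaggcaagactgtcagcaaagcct
Slc6a9, chr4:117835008-117835257, plus strand: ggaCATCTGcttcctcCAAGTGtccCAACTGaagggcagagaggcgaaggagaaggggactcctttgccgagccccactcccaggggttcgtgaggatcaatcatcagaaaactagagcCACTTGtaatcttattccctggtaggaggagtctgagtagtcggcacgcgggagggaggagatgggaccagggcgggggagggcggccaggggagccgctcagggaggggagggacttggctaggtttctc
Lamp5, chr2:136052089-136052338, plus strand: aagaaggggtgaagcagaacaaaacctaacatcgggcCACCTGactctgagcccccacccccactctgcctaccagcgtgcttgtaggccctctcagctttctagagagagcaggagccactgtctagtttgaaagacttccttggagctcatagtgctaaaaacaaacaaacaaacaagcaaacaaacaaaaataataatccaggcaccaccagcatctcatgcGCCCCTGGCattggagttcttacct
The Gad1 window held 1 E-box, the Kcnip1 window 2, the Slc6a9 window 4, and the Lamp5 window 1 E-box and 1 AP-2 motif. Of 27025 such windows in the table, 66.05% held an E-box and 13.51% an AP-2 motif. Of the genes named below for the Gad1-only side that had a window, 5 of 11 (45.45%) held an E-box and 1 (9.091%) an AP-2 motif. For the Slc6a9-only side these were 2 of 11 (18.18%) and 3 of 11 (27.27%). A match is a string of letters and not a bound site, and no factor's binding was measured here.

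The signals that defined the sides were far from the threshold in most cells. Gad1 ran from 6304 to 28786 in the Gad1-only cells, with a median of 10552, and from 1.12 to 88.9 in the Slc6a9-only cells. Slc6a9 ran from 2022 to 23213 in the Slc6a9-only cells, with a median of 13182, and from 15.6 to 242 in the Gad1-only cells. The nearest member inside was P5 pSynapsin cell E1, with Slc6a9 at 2022, followed by P5 pNdrg4 cell B4 at 2877. Just outside lay the cultured P5 pNdrg4 cell D6, with Slc6a9 at 990 and Gad1 at 58.5. The cell with both genes, P5 pNdrg4 A6 with no culture stated, had Gad1 at 2471 and Slc6a9 at 15300, and cell A2 of the same group had 58.8 and 73.6. A threshold of 2000 left every cell on its side, and a threshold of 500 added D6 to the Slc6a9-only side.

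**Figure D1:**
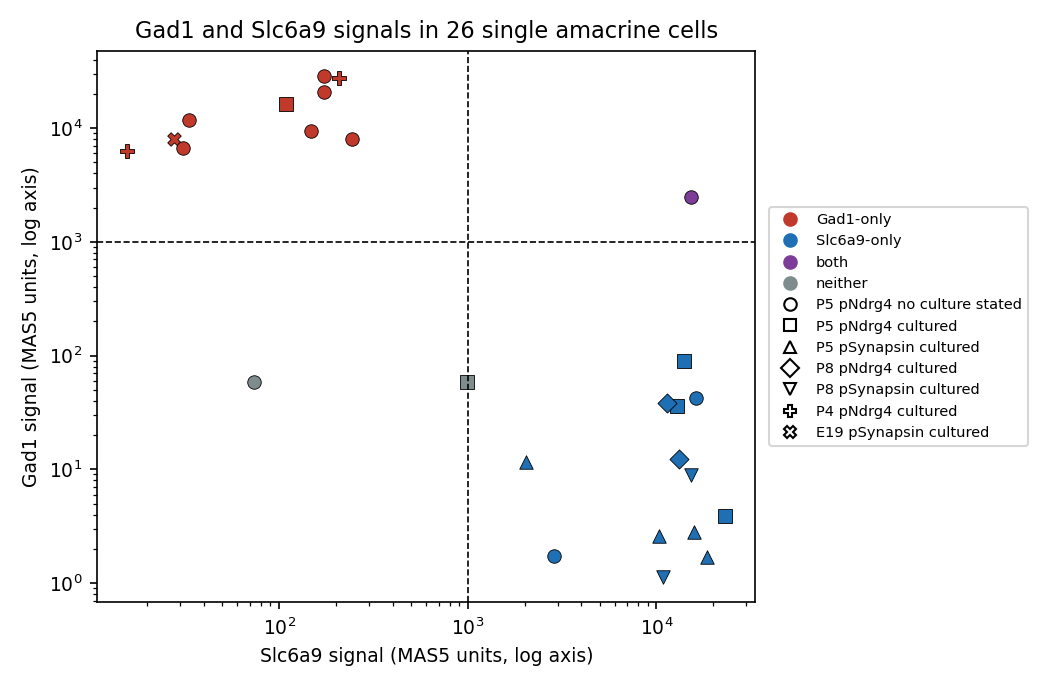
Gad1 signal (vertical axis) against Slc6a9 signal (horizontal axis) in the 26 cells, MAS5 units on log axes; colour gives the side, marker shape the labelled group, and dashed lines the threshold of 1000. The 10 Gad1-only cells and 13 Slc6a9-only cells sit in opposite corners, with 1 cell above both lines, and cell D6 just left of the vertical line.

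Pan-amacrine genes were detected on both sides, though not all of them in most cells. Of the 10 measured, a Gad1-only cell had 3 to 8 and a Slc6a9-only cell 4 to 8. Pax6, the homeobox factor kept in mature amacrine cells, was detected in 10 of 10 and 13 of 13 cells, with mean log2 signals of 14.39 ± 1.31 and 14.03 ± 0.45 (SD). Slc32a1 was detected in 7 of 10 Gad1-only and 13 of 13 Slc6a9-only cells, and Snap25, a synaptic fusion protein, in 9 and 13. Elavl3, a neuronal RNA-binding protein, was found in 7 and 13 cells. Elavl4 of the same list differed by 1.32 over all cells, and by -0.0055 with the median over probe sets. Stx1a, described further below, was detected in a minority of the cells of each side. Tfap2a and Tfap2b, which encode AP-2 factors of the amacrine lineage, were less evenly spread: Tfap2b was detected in 10 and 8 cells and Tfap2a in 8 and 6. Ptf1a and Foxn4, factors of amacrine precursors, were not detected in any cell of either side. By the approximate rule of 3 counts over the number of cells, this allows a share of up to 30.0% and 23.1%. Such bounds cover counting error only.

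Genes higher in the Gad1-only cells were few, and genes higher in the Slc6a9-only cells were more numerous. Differences are Gad1-only minus Slc6a9-only, in log2 units of signals raised to a floor of 200 (7.64 on the log2 scale), so a difference against cells at the floor understates the gap. A gene entered when at least 2 of the 23 cells had it. Of these 8353 genes, 61 were at least 2 units (4-fold) higher in the Gad1-only cells (0.73%), and 300 were at least 2 units higher in the Slc6a9-only cells (3.59%). The median gene differed by -0.34, with 35.15% of genes higher and 64.85% lower in the Gad1-only cells. Fewer genes were detected per Gad1-only cell (1910 to 3926, median 2467.5) than per Slc6a9-only cell (2250 to 4181, median 3468). The part of this count in the excess of Slc6a9-side genes was not tested. Another scaling moved the median difference, to -0.17 after quantile normalization and to -0.46 after scaling to the 75th percentile.

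In only 3 genes did the sides not overlap at all. Gad1 and Lrrn3 had every Gad1-only cell above every Slc6a9-only cell (0.0239% of genes tested), and Slc6a9 had the reverse (0.012%). Gad1 and Slc6a9 chose the cells, which leaves Lrrn3. These cells of the P5 pNdrg4 group shared age and reporter labels, but whether they shared a culture state is not given. Within this group with no culture stated, 6 Gad1-only cells could be set beside 2 Slc6a9-only cells, B1 and B4. There, 499 genes were at least 2 units higher in the Gad1-only cells (5.97%) and 1206 in the Slc6a9-only cells (14.4%). Counts in so small a group rest on few cells, and without B1 the second count was 2039 while without B4 the first was 1010. At least 2 units apart in both comparisons were 44 genes on the Gad1-only side (0.527%) and 152 on the Slc6a9-only side (1.82%). These comparisons share cells. In the cultured P5 pNdrg4 group, with 1 and 3 cells, 1524 genes (18.2%) and 866 genes (10.4%) lay past 2 units. The 12 genes furthest apart in the first 2 comparisons are described for each side, out of 2327 (27.9%) that reached detection in 60% or more of their higher side.

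Lrrn3, a leucine-rich repeat membrane protein, ranked highest on the Gad1-only side. Its signal ran from 12553 to 54124 in the 10 Gad1-only cells, with a median of 22690. In the 13 Slc6a9-only cells it ran from 14.6 to 3800, with a median of 955. It was still detected in 6 of those 13, all of them cultured, so the separation was one of level: 14.65 ± 0.74 against 9.59 ± 1.88 on the log2 scale (SD), a difference of 5.06. In P5 pNdrg4 cells B1 and B4 it was at the floor, and the difference within that group was 7.14. In the cultured P5 pNdrg4 group, with 1 Gad1-only and 3 Slc6a9-only cells, it was 3.88.

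Kcnip1 encodes KChIP1, a calcium-binding subunit of Kv4 potassium channels. It was detected in 9 of 10 Gad1-only cells and in 1 of 13 Slc6a9-only cells. Exact Clopper-Pearson 95% intervals for these shares were 55.5 to 99.7% and 0.195 to 36.0%, which cover counting error only. They treat cells as independent, although no animal was named, and Kcnip1 was chosen for its difference on these cells. In the cells that had it on the Gad1-only side it reached 19953, with a median over all 10 of 8275. The Gad1-only cell without it was the E19 pSynapsin cell, at 138. The single Slc6a9-only cell with it, P5 pSynapsin E3, was near the detection level at 1093. The difference was 4.59 over all cells, 5.42 among P5 pNdrg4 cells without a stated culture and 4.50 among the cultured ones. A further Kcnip1 probe set showed the same side, with detection in 6 and 0 cells.

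C1ql2 and Lingo1 were each found in 7 of 10 Gad1-only cells and in 0 of 13 Slc6a9-only cells. The rule of 3 counts allows a share of up to 23.1%, although these genes were chosen for being low there. C1ql2 is a secreted C1q-family protein of synapses. Its signal reached 20766 and its median over the Gad1-only cells was 7305. The all-cell difference of C1ql2 was 3.96 and that among P5 cells with no culture stated was 4.87, whereas the cultured P5 cell C6 had none of it. All 7 cells with C1ql2 also had Kcnip1. Lingo1, a leucine-rich repeat protein of the neuronal surface, differed by 2.94 over all cells, 3.88 with no culture stated and 2.27 in the cultured P5 cells.

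Slc6a11 brought the GABA system itself into the list. It encodes GAT-3, a plasma membrane GABA transporter. Its signal reached 17579 on the Gad1-only side, where 8 of 10 cells had it, and it was detected in 1 of 13 Slc6a9-only cells, P5 pNdrg4 D5 at 4335. The difference was 3.54 over all cells, 3.32 with no culture stated and 2.55 in the cultured P5 group.

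Tfap2b separated the sides by level more than by presence. Its signals ran from 11223 to 54926 in the Gad1-only cells, with a median of 31973, and reached 17409 in the Slc6a9-only cells, with a median of 5239. The upper Slc6a9-only cells thus overlapped the lower Gad1-only cells. The Tfap2b difference was 3.75 over all cells and 5.19 among P5 cells with no culture stated. In the cultured P5 group it was -0.26, where C6 had 11223 and the 3 Slc6a9-only cells had 11034, 14078 and 15758. Tfap2a was detected in 14 cells, and all 14 also had Tfap2b.

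The remaining genes named for the Gad1-only side were Git1, Tubb3, Crabp1, Map2, Dtnbp1 and Meis1. Git1 encodes a scaffold protein of the cytoskeleton and of endocytosis, and it was detected in 9 of 10 against 3 of 13 cells with a difference of 3.32. The Git1 difference with no culture stated was 3.695, and the mean of that and the cultured P5 difference was 1.85. Tubb3, neuronal beta-tubulin, was detected in 10 and 8 cells and differed by 3.10 over all cells, 3.91 with no culture stated and 2.95 in culture. Leaving out 1 cell moved the Tubb3 value with no culture stated to between 2.15 and 5.68. Crabp1, a retinoic acid carrier, was detected in 8 and 6 cells with a difference of 3.02, and 1.55 as the same mean of 2 groups. It rested on the cell compared: within the P5 group with no culture stated the Crabp1 difference was 3.11 with both Slc6a9-only cells and 0.29 without B1. The same held for Map2, a microtubule protein of dendrites, with 2.73 over all cells, 3.34 within that group and 0.85 without B1. Other Map2 probe sets were detected in at most 1 cell. Dtnbp1, which encodes dysbindin, differed by 2.72 over all cells and 4.81 within the group. The homeobox factor Meis1 was detected in 7 and 3 cells, with 2.96 over all cells, 2.72 within the group and 1.13 there without B1.

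**Figure D2:**
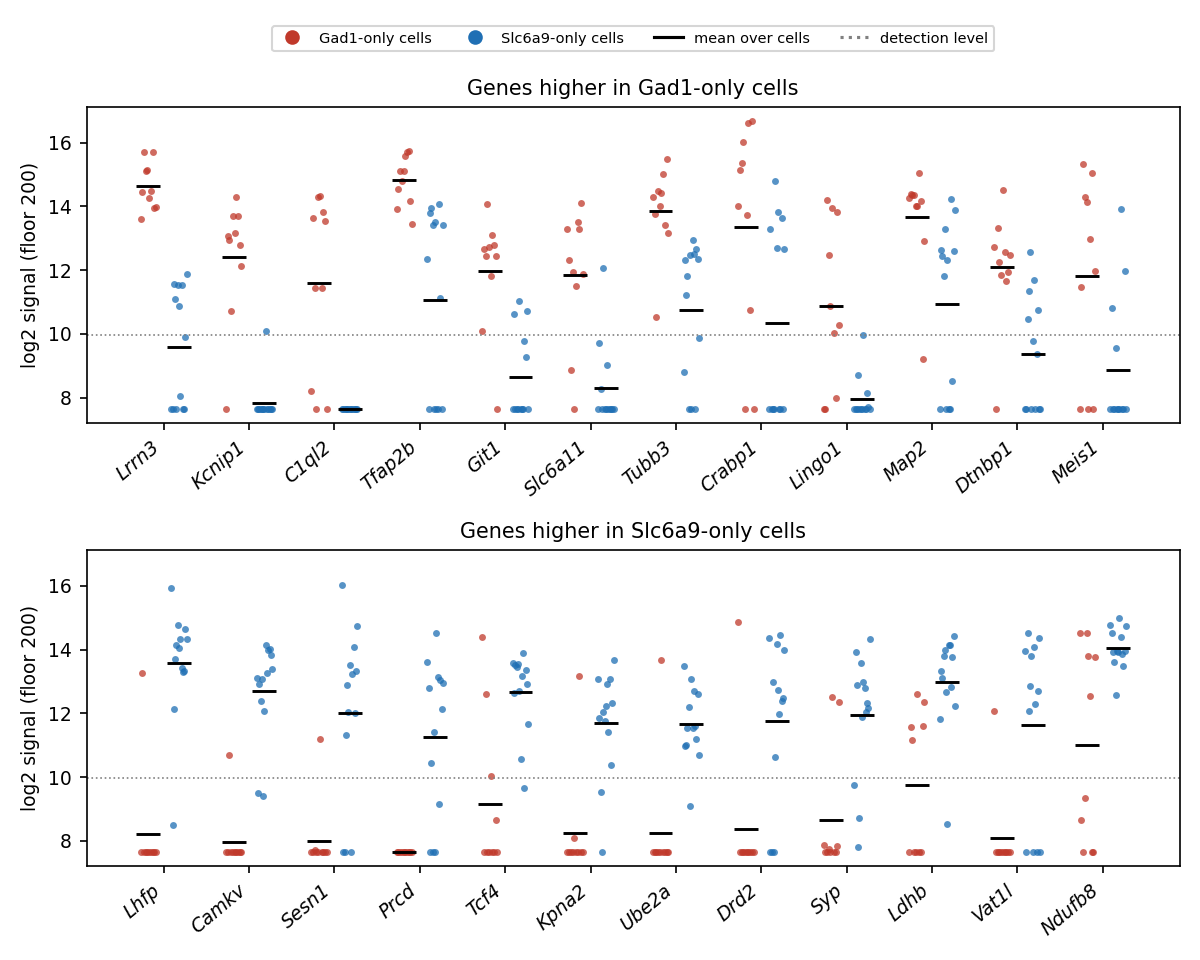
Log2 signal, with a floor of 200, of the 12 genes named for each side, 1 point per cell, Gad1-only cells red and Slc6a9-only cells blue; black bars are means over 10 and 13 cells and the dotted line is the detection level of 1000. Lrrn3 shows no overlap between sides, Kcnip1 and C1ql2 are at the floor in nearly all Slc6a9-only cells, and Prcd is at the floor in all Gad1-only cells.

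On the Slc6a9-only side Lhfp came highest. It encodes a tetraspan membrane protein. Its signal ran from 363 to 63203 in the Slc6a9-only cells, with a median of 17077, and 12 of the 13 had it. Of the Gad1-only cells P4 pNdrg4 A3 alone had it, at 9936. The difference was -5.38 over all cells, -4.58 in the P5 group with no culture stated and -5.69 in the cultured P5 group. B4 was the Slc6a9-only cell below detection, and without B1 the within-group value was -0.86.

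Lamp5 had the widest gap of any gene on this side over all cells. It encodes a lysosome-associated membrane protein found in vesicles of some inhibitory neurons. Its median was 25577 in Slc6a9-only cells, where 12 of 13 cells lay between 15370 and 50812 and B4 was at the floor, while among the Gad1-only cells only P5 pNdrg4 A1 had it, at 2523. The Lamp5 difference was -6.17 over all cells and -7.53 in the cultured P5 group. With no culture stated it was -2.82, and 0.61 without B1. The 12 Slc6a9-only cells with Lamp5 were the same 12 that had Lhfp. Lhfp, Lamp5 and Ube2a, a ubiquitin-conjugating enzyme, had the detection pattern most like that of Slc6a9 among the genes ranked. Each had a phi coefficient of -0.82 against membership of the Gad1-only side over 23 cells. Of the 8353 genes, the ranking left out Gad1, Slc6a9, clone-type symbols and genes detected in every cell. Naa35 (0 and 10 cells, phi -0.77) and Ccdc115 (3 and 13 cells, phi -0.75) came next. On the other side the highest were Kcnip1 (0.82), C1ql2 and Lingo1 (both 0.75), Slc6a11 (0.73) and Rai14 (0.68, 6 and 0 cells).

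Camkv encodes a calmodulin-binding protein related to the CaM kinases. It was detected in 11 of 13 Slc6a9-only cells, with a median signal of 8901, and in 1 Gad1-only cell, P4 pNdrg4 B4 at 1641. Its difference was -4.75 over all cells, -3.67 with no culture stated and -5.15 in the cultured P5 group. Without B1 the value with no culture stated was -1.86.

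Tcf4, an E-protein that pairs with bHLH factors, was detected in 12 of 13 Slc6a9-only cells and 3 of 10 Gad1-only cells. The remaining Slc6a9-only cell, P8 pNdrg4 A1, lay just below detection at 801. Among Gad1-only cells Tcf4 was highest in the E19 pSynapsin cell, at 21482, followed by P4 pNdrg4 B4 at 6226 and P5 pNdrg4 A7 at 1044. The Tcf4 difference was -3.51 over all cells, -4.90 with no culture stated and -5.85 in culture. It did not turn on either Slc6a9-only cell of the P5 group with no culture stated, with -4.43 without B1 and -5.36 without B4. Kpna2, a nuclear import receptor (-3.45 over all cells), and Ube2a (-3.43) likewise kept a difference under -2 within that group without either cell.

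Several genes of this side rested on B1 in the P5 group with no culture stated. Drd2, the D2 dopamine receptor, was detected in 10 of 13 Slc6a9-only cells, where it reached 22353. Its highest signal of all was in a Gad1-only cell, the E19 pSynapsin cell, at 30124. The Drd2 difference was -3.41 over all cells and -3.36 within the group, and 0 without B1. Sesn1, a stress-response protein, gave -4.00 over all cells and -3.60 within the group, and 0.59 without B1. Vat1l, a vesicle amine transport-like protein, gave -3.55, -3.16 and, without B1, 0. B1 held 11 of the 12 genes named for this side and B4 held 7.

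The remaining genes were Prcd, Syp, Ldhb and Ndufb8. Prcd, known from photoreceptor outer segments, was detected in 9 of 13 Slc6a9-only cells and 0 of 10 Gad1-only cells, with -3.60 over all cells and -5.56 within the P5 group with no culture stated. Of these 9 cells, 7 also had Sag, the rod arrestin. Syp, the vesicle protein synaptophysin, was detected in 10 Slc6a9-only and 2 Gad1-only cells, with -3.28 over all cells and -3.34 within the group. Without B4 the within-group value was -1.26. In the cultured P5 group Syp ran the other way, at 2.56, with C6 at 5273, and the mean of the 2 within-group differences was -0.39. Ldhb, a lactate dehydrogenase subunit, gave -3.23 and -3.45 and had a signal above 1000 in 12 of 13 Slc6a9-only and 5 of 10 Gad1-only cells. Ndufb8, a subunit of respiratory complex I, was detected in 13 Slc6a9-only and 5 Gad1-only cells, with -3.04 over all cells, -3.73 within the group and 0.41 in culture.

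Of these 24 genes, 7 lay under 2 units by another way of computing the all-cell difference. As the mean of the 2 within-group differences Git1 gave 1.85, Crabp1 1.55, Map2 1.87, Ndufb8 -1.66 and Syp the value above. With the median over probe sets in place of the brightest one Kcnip1 gave 1.998, Map2 0.33 and Meis1 1.51.

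**Figure D3:**
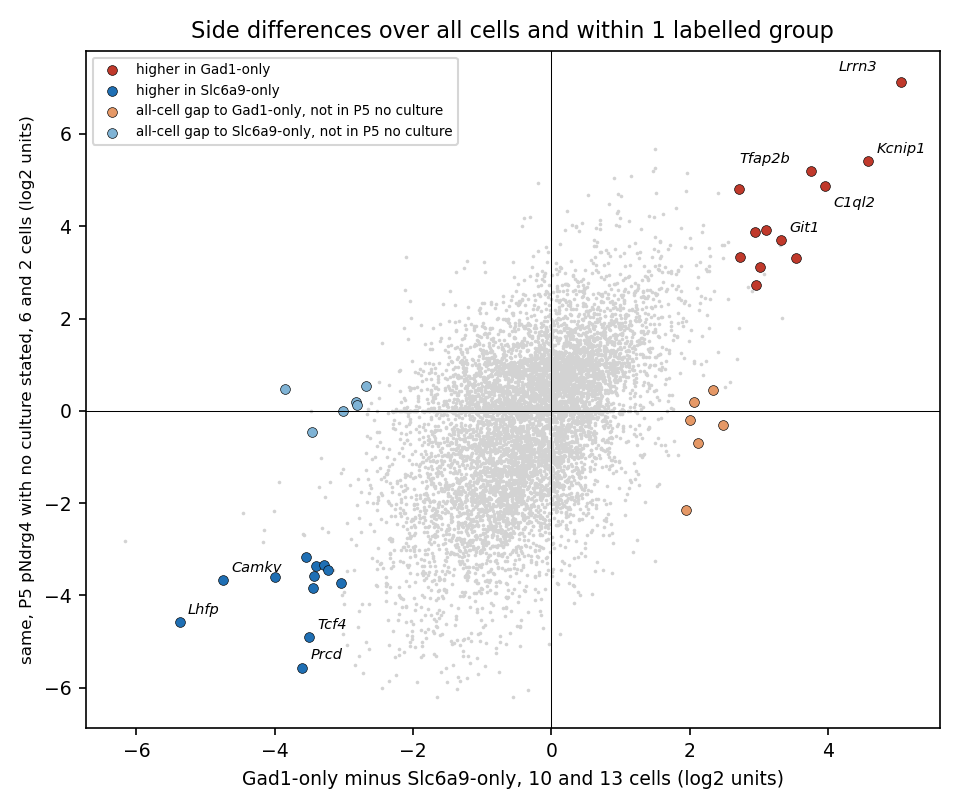
Difference between side means in log2 units (Gad1-only minus Slc6a9-only) over all 10 and 13 cells (horizontal axis) and among the 6 and 2 P5 pNdrg4 cells with no culture stated (vertical axis); grey points are the other genes tested, Gad1 and Slc6a9 are left out, and the axes share 8 cells. Lrrn3 and Kcnip1 lie at the upper right and Lhfp and Camkv at the lower left. The pale coloured points are genes that differed over all cells but by under 0.5 units, or in the other direction, within the group.

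Some genes differed over all cells but by under 0.5 units, or in the other direction, within the P5 group with no culture stated. On the Gad1-only side these were led by Neurl4 (2.48 over all cells and -0.31 within the group), Dcx (2.34 and 0.46) and Nkain1 (2.12 and -0.71). Dcx encodes doublecortin, a microtubule protein of migrating neurons. Mat2b (2.06 and 0.20), Mrpl23 (1.998 and -0.19) and the glucose transporter gene Slc2a1 (1.95 and -2.15) completed the set. Mrpl23 and Slc2a1 lay just under 2 units over all cells. On the other side were Ube2ql1 (-3.85 and 0.48), Wdr13 (-3.46 and -0.46) and Dach1 (-3.01 and 0), the last a retinal determination factor. Amz2 (-2.82 and 0.20), Nsmf (-2.81 and 0.12) and Cpeb2 (-2.68 and 0.55) followed. For these genes age, reporter and culture, which differ between the sides, cannot be told apart from the side.

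Transmitter genes beyond the 2 that chose the cells split unevenly. Of 7 tested genes of GABA synthesis, transport and breakdown, 2 were at least 2 units higher in the Gad1-only cells and 0 lower, and 1 of these was Gad1 itself. The other was Slc6a11. Without Gad1, which chose the cells, the median difference of the other 6 genes was 0.38, against -0.34 over all genes tested. Gad2, the synaptic GAD enzyme, was detected in 7 of 10 Gad1-only cells and in 7 of 13 Slc6a9-only cells. Its medians were 3919 and 1600, its highest signals 25921 in P5 pNdrg4 B3 and 8488 in P5 pNdrg4 C1, and its difference 0.999. Cells of the Slc6a9-only side therefore often carried Gad2 signal without Gad1 signal, and 3 Gad1-only cells had no Gad2. Abat, which breaks GABA down, was detected in 6 and 8 cells (-0.24), Aldh5a1 of the same route in 3 and 4 (-0.42), and the glutamine transporter gene Slc38a1 in 9 and 10 (1.15). Slc6a13, which encodes GAT-2, was not detected on either side. Within the P5 group with no culture stated the Gad2 difference was 2.26, and 0.55 without B1. In that group 3 of the 7 GABA genes, Gad1, Slc6a11 and Gad2, were at least 2 units higher in the Gad1-only cells, where 5.97% of all genes were.

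Slc32a1, the vesicular carrier shared by both transmitters, had medians of 2423 in the Gad1-only and 4674 in the Slc6a9-only cells and a difference of -1.34. With the median over probe sets the Slc32a1 difference was 0.52, so its direction depended on the probe set. Its lowest Slc6a9-only signal was 1036. Slc6a5, which encodes the second glycine transporter GlyT2, was detected in 4 of 13 Slc6a9-only cells and 0 of 10 Gad1-only cells. The 4 cells were P5 pNdrg4 D3 at 1755, P8 pNdrg4 A1 at 2399, P8 pNdrg4 A2 at 1463 and P8 pSynapsin B4 at 1409. Thus 3 of the 4 were P8 cells, and the difference was -1.01. Shmt2, which makes glycine from serine in mitochondria, was detected in 3 and 6 cells (-0.42). Gldc and Gcsh of the glycine cleavage system were found in 2 and 1 and in 2 and 3 cells, and Shmt1 in none. Of 6 tested genes of the glycine list, 1 was at least 2 units lower in Gad1-only cells, Slc6a9 itself. Without Slc6a9 the median of the other 5 genes was -0.42, close to the -0.34 of all genes tested. Within the P5 group with no culture stated 2 of the 6, Slc6a9 included, were at least 2 units lower in the Gad1-only cells. Of all genes 14.4% were, and the median of the 6 was -0.84.

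Receptor genes showed little separation by side. Of 4 tested genes of glycine receptors and their anchor, 0 were 2 units apart, with a median of -1.20. Glra2 was detected in 3 Gad1-only and 8 Slc6a9-only cells, Glra3 in 2 and 5, Glrb in 2 and 7, and the scaffold gene Gphn in 3 and 5. Of 5 tested GABA-A subunit genes, 0 were 2 units apart, with a median of -0.57 and Gabrb2 furthest at -1.83. Of 8 tested ionotropic glutamate receptor genes only Gria1, an AMPA receptor subunit, was 2 units apart, at 2.497, with detection in 6 of 10 and 2 of 13 cells, and at 1.59 as the mean of the 2 within-group differences. Within the P5 group with no culture stated, Gria3 and the GABA-B receptor gene Gabbr1 differed by 4.33 and 4.03. Over all cells they differed by 0.97 and 0.30.

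Transcription factors divided the sides in both directions. Of 37 tested genes on the amacrine factor list, 5 were at least 2 units higher in the Gad1-only cells, where 0.73% of all genes were, and 4 were at least 2 units higher in the Slc6a9-only cells, where 3.59% were. The list's median was -0.05. The list had been drawn up with results of these cells known. Higher in Gad1-only cells were Tfap2b, Meis1, Meis2 (2.58, 7 and 4 cells), the nuclear receptor gene Nr4a2 (2.28, 4 and 1 cells) and the POU factor gene Pou3f3 (2.15, 3 and 0 cells). The LIM factor gene Lhx9 (1.92, 3 and 0 cells) fell just short. Higher in Slc6a9-only cells were Tcf4, the bHLH factor gene Nhlh2 (-2.63, 3 and 9 cells), and the early B-cell factor genes Ebf3 (-2.26, 0 and 7 cells) and Ebf1 (-2.09, 0 and 6 cells). Ebf4 (-1.97, 2 and 7 cells) and Neurod2 (-1.68, 0 and 5 cells) followed. Several of these rested on the probe set or on few cells. With the median over probe sets Ebf3 gave -0.51, Ebf1 -0.71, Meis1 1.51 and Nr4a2 1.44. Pou3f3 rested on 3 cells and was not put through the other settings. After quantile normalization Ebf3 gave -1.89 and Ebf1 -1.51. Ebf1 was -1.78 without P5 pSynapsin E4, and Nr4a2 was 1.80 without P5 pNdrg4 A8 and 0 with medians over cells. Within the P5 group with no culture stated Ebf1 gave -0.64 and Ebf3 -2.29, and without B4 they gave 0.18 and 0.11. Ebf1, Ebf3 and Neurod2 were not detected in any of the 10 Gad1-only cells, which allows a share of up to 30.0%.

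Within each side these factors marked different cells. On the Slc6a9-only side, Ebf1 or Ebf3 was detected in 10 of 13 cells, and the other 3 cells, P5 pNdrg4 B1, P5 pSynapsin E2 and P8 pSynapsin B4, all had Neurod2. Neurod2 signals in them were 4324, 8087 and 3359. Only 2 cells had Neurod2 together with Ebf1 or Ebf3, both of them P8 pNdrg4 cells. Neurod2 encodes a bHLH factor of neuronal differentiation, and 3 of the 4 cells with Slc6a5 were among the 5 with it. On the Gad1-only side, Meis1 and Meis2 were both detected in 4 cells, Meis1 alone in 3 and Meis2 alone in 3, so that each of the 10 had at least 1 of this pair. The 3 Gad1-only cells with Pou3f3 all had Meis1. Nr4a2 was detected in P4 pNdrg4 A3 and in P5 pNdrg4 A5, A8 and B3. These patterns were picked after the values were seen.

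Other factors on the list were less than 2 units apart over all cells. Sox4 was detected in 10 and 13 cells (0.55) and Sox11 in 5 and 9 (-1.04). Barhl2, a homeobox factor of amacrine and ganglion cells, was detected in 5 and 5 cells (1.25), and Lmo4, a LIM-only factor, in 4 and 2 (1.23). Six3 and Six6, eye-field homeobox factors, were detected in 4 and 9 and in 2 and 7 cells (-1.16 and -1.02). Neurod1, Neurod4 and Satb1 were detected in 3 and 7, 1 and 4, and 3 and 8 cells, with differences of -1.28, -1.17 and -1.24. Within the P5 group with no culture stated Neurod1 gave -5.31, Satb1 -3.92 (0 with the median over probe sets) and Neurod4 -3.02 (0.0515 without B4). Nfia, which marks AII cells among others, was detected in 1 and 4 cells (-1.17). Meis3 (4 and 6 cells, 0.03), Tcf12 (4 and 6, -0.17), Tshz1 (4 and 6, 0.15), Bcl11a (3 and 4, 0.29) and Onecut2 (3 and 1, 0.61) differed by less than 1 unit over all cells. Sox2 was detected in 1 and 3 cells (-0.75). With no culture stated Sox2 gave -5.66 and Meis3 2.57.

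**Figure D4:**
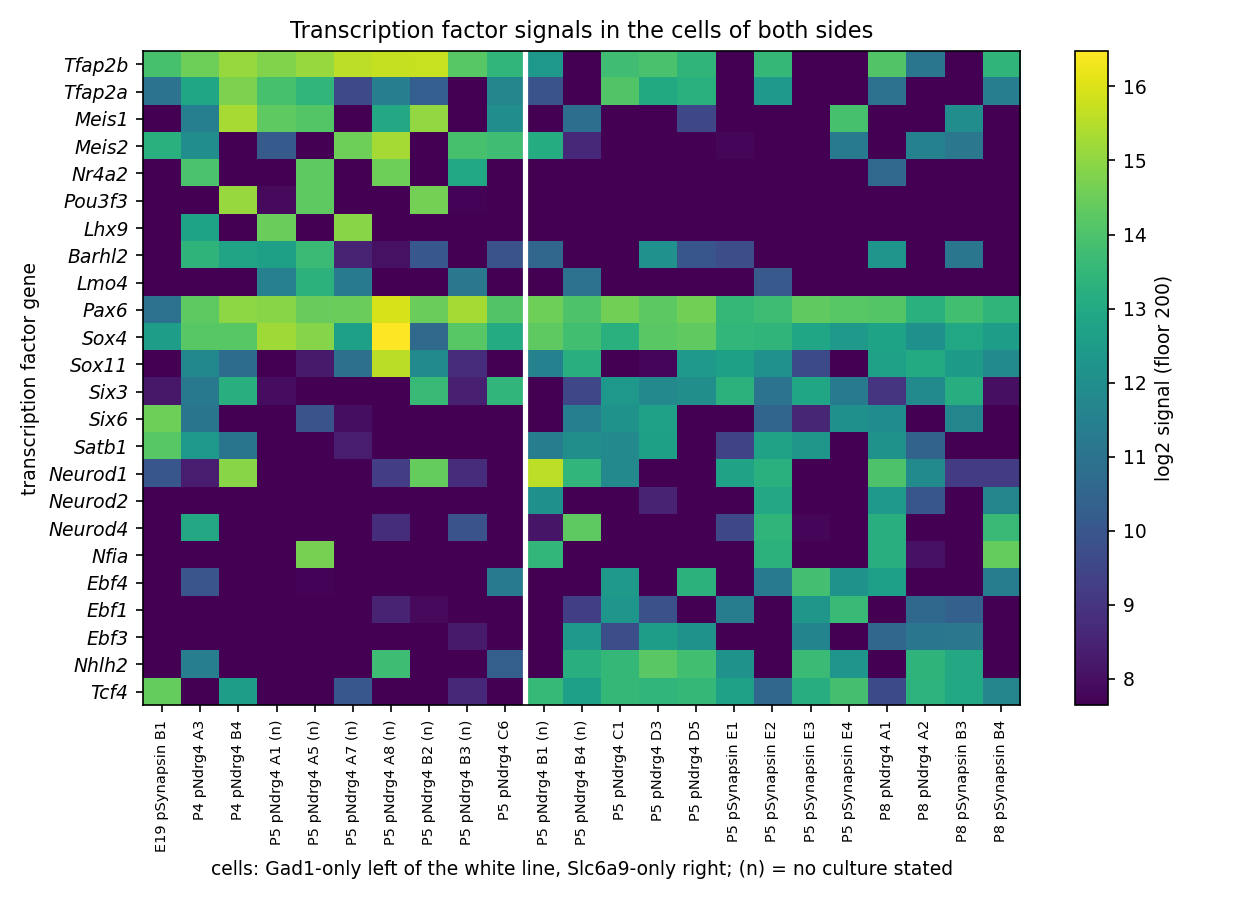
Log2 signal, with a floor of 200, of 24 transcription factor genes (vertical axis) in the 10 Gad1-only cells and the 13 Slc6a9-only cells (horizontal axis, split by the white line); (n) marks P5 cells with no culture stated. Pax6 and Sox4 fill both sides, Ebf1 and Ebf3 are below detection in all Gad1-only cells, and the 3 Slc6a9-only cells without Ebf1 or Ebf3 have Neurod2.

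Genes tied to known amacrine classes differed in direction from class to class. Of 6 tested AII-associated genes, 6 were lower in the Gad1-only cells, 1 of them by at least 2 units, with a median of -1.72. Of all genes 64.85% were lower and 3.59% by at least 2 units, with a median of -0.34. In the other direction these shares of all genes were 35.15% and 0.73%. Of 2 starburst genes tested, 2 were lower, neither by 2 units, with a median of -0.77. Of 2 dopamine and amine genes tested, 2 were higher, Nr4a2 by at least 2 units, with a median of 1.71. Of 6 neuropeptide precursor genes tested, 5 were higher, 0 of them by 2 units, with a median of 0.79. Dab1, the reelin adaptor found in AII cells, was detected in 11 Slc6a9-only cells and 1 Gad1-only cell, with -4.01 over all cells. The exceptions on the Slc6a9-only side were P5 pNdrg4 B4 and C1, and without B1 the within-group Dab1 value was 0.91. Gjd2, the gap junction protein connexin 36, was detected in 4 Slc6a9-only cells and 1 Gad1-only cell, and Calb2, calretinin, in 7 and 1. Chat, Slc18a3 and Slc5a7 of the cholinergic starburst cells and Th, Ddc and Slc6a3 of dopaminergic cells were not detected on either side. The vesicular amine carrier gene Slc18a2 was detected in 2 Gad1-only cells and 0 Slc6a9-only cells (1.13). Of the peptide precursors, Cartpt was found in 2 Gad1-only cells alone (1.60).

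Reelin and its adaptor lay on opposite sides. Reln, a secreted matrix protein, was detected in 5 of 10 Gad1-only cells and 0 of 13 Slc6a9-only cells. The 5 were P4 pNdrg4 A3 at 8186, P5 pNdrg4 C6 at 13083, and P5 pNdrg4 A8, A1 and A7 at 26350, 27758 and 35111. The Reln difference was 3.30 over all cells, 3.60 with no culture stated and 6.03 in the cultured P5 group, and all 5 cells with Reln had Meis2. Cbln1, a secreted synapse organiser, was detected in 4 Gad1-only cells and 0 Slc6a9-only cells (2.91), of which 2 also had Reln. The Cbln1 difference was 1.02 with medians over cells and 1.50 as the mean of the 2 within-group differences. Reln and Cbln1 were the 2 genes at least 2 units higher in Gad1-only cells among 35 tested genes of adhesion and synaptic partners. The 5 in the other direction were Dab1, the presynaptic adhesion gene Nrxn3 (-3.57, 4 and 12 cells), Cntnap2 (-2.46, 3 and 11), the cadherin gene Cdh22 (-2.46, 2 and 8) and the guidance receptor gene Robo3 (-2.18, 0 and 5). The list's median was -0.17, and of all genes 0.73% and 3.59% lay past 2 units in these directions. With the median over probe sets the Nrxn3 difference was -0.40. Without B1 the Nrxn3 difference within the P5 group with no culture stated was 0.68, against -2.69 with both cells.

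Of 12 tested genes of calcium-binding proteins, 10 were lower in the Gad1-only cells and 2 of these by at least 2 units, with a median of -0.64. Of all genes 64.85% were lower and 3.59% by at least 2 units, with a median of -0.34. Pcp4, a calmodulin regulator, was detected in 7 Slc6a9-only cells and 0 Gad1-only cells, with -3.48 over all cells, -0.82 among pNdrg4 cells and 0 in the P5 group with no culture stated. Cabp1, a relative of calmodulin, was detected in 10 Slc6a9-only and 2 Gad1-only cells (-2.60), and Calb2 gave -1.75. Within the P5 group with no culture stated Cabp1 gave -1.04, and 1.85 without B1. Calb2 gave -1.08 there, and 1.05 without B4. Among channel genes Kcnip1 stood alone: of 4 tested genes of the KChIP and Kv4 list only Kcnip1 was 2 units apart. Kcnip3, which encodes KChIP3, was detected in 8 Slc6a9-only cells and 1 Gad1-only cell (-1.67), and the Kv4.3 gene Kcnd3 in 7 and 5 (0.44). Of 13 other potassium channel genes and 16 sodium, calcium and HCN channel genes, 0 were 2 units apart. The widest in the Gad1-only direction were the sodium channel gene Scn3b, found in 5 Gad1-only cells and 0 Slc6a9-only cells (1.66), and Cacna2d2 (1.60).

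Of 23 tested presynaptic genes, 18 were lower in the Gad1-only cells and 3 of them by at least 2 units, Lamp5, Syp and Cplx3, with a median of -0.50, beside the same 64.85%, 3.59% and -0.34 over all genes. Cplx3, a complexin of retinal synapses, was detected in 12 of 13 Slc6a9-only cells and 5 of 10 Gad1-only cells (-2.95, and -0.98 as the mean of the 2 within-group differences). In the other direction Stx1a, which encodes syntaxin, gave 1.74 with detection in 4 Gad1-only and 2 Slc6a9-only cells. Of 17 tested genes of growing and immature neurons, 14 were higher in the Gad1-only cells and 3 by at least 2 units, Tubb3, Dcx and Gap43, with a median of 0.71. Of all genes 35.15% were higher there and 0.73% by at least 2 units. Without P5 pNdrg4 B2 the Dcx difference was 1.83, and the median over its probe sets gave 0.19. Gap43, a growth cone protein, was detected in 5 Gad1-only cells and 1 Slc6a9-only cell (2.23 over all cells and 1.07 with no culture stated). Gap43 was 1.18 as the mean of the 2 within-group differences, 1.81 over all cells without P5 pNdrg4 A1, and -0.89 within the group without B1. Stmn1, Crmp1, Marcksl1, Tubb2b, Tuba1a and Basp1 of the same list were detected in every cell of both sides. Age goes with this comparison, since the 3 cells labelled E19 or P4 were Gad1-only and the 4 P8 cells Slc6a9-only.

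Immediate early genes differed more within the P5 group with no culture stated than over all cells. Ier5, an immediate early gene, was detected in 9 Slc6a9-only and 2 Gad1-only cells (-2.39), and it was the 1 of 5 tested genes of its list at least 2 units apart over all cells. With the median over probe sets Ier5 gave -0.28. Within the group 4 of the 5 were at least 2 units lower in the Gad1-only cells, where 14.4% of all genes were, with a median of -3.78. Jun gave -3.91 there, Jund -3.89 and Ier5 -3.78. Of 15 tested genes of glycolysis and hypoxia, 0 were 2 units apart, with a median of 0.47. Slc2a1 (1.95) and Hk1, a hexokinase (-1.94), were the widest in each direction. Of 8 housekeeping genes 1 was 2 units apart: Hprt, a purine salvage enzyme encoded on the X chromosome, was detected in 12 of 13 Slc6a9-only and 2 of 10 Gad1-only cells (-2.29, and -1.80 after quantile normalization). Actb, Actg1, Gapdh, Eef1a1 and Rplp0 were detected in all 23 cells, with differences between 0.12 and 0.69. Xist, expressed from the inactive X chromosome, was detected in 6 Slc6a9-only and 3 Gad1-only cells, and the Y-linked Eif2s3y in 4 and 5.

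Photoreceptor transcripts were detected more often in the Slc6a9-only cells, though not in all of their labelled groups. Of 11 tested rod and cone genes, 4 were at least 2 units higher in the Slc6a9-only cells and 0 in the Gad1-only cells, with a median of -1.53. Of all genes 3.59% and 0.73% were, with a median of -0.34. Sag was detected in 9 of 13 against 1 of 10 cells, the rod factor gene Nrl in 8 against 1, phosducin (Pdc) in 7 against 2 and recoverin (Rcvrn) in 5 against 0. The Sag difference was -3.00 over all cells and -1.07 as the mean of the 2 within-group differences. Pdc and Rcvrn gave -2.09 and -2.001 over all cells. Pdc was -1.34 among P5 cells and -1.79 without P5 pNdrg4 B4, and Rcvrn was 0 with medians over cells and -1.72 without P8 pNdrg4 A2. A Slc6a9-only cell had 2 to 11 genes of the list detected, with a median of 5, and a Gad1-only cell 1 to 7, with a median of 2. The P8 cells, all Slc6a9-only, had 8, 10, 4 and 11, and there age cannot be told apart from the side. P5 pNdrg4 B4 and P5 pSynapsin E2 had 9 each. The summed signal of the list ran from 13800 to 132132 in Slc6a9-only cells, with a median of 40279. In Gad1-only cells it ran from 14609 to 92542, with a median of 31326. The sum included Gnb1, a G protein subunit gene detected in 13 Slc6a9-only and 9 Gad1-only cells. Prph2 and the cone opsin gene Opn1mw were not detected on either side. The 3 cultured P5 pNdrg4 cells of the Slc6a9-only side had 2 photoreceptor genes each, the Gad1-only median. Their Lamp5 signals were 29854, 33534 and 50812 and their Lhfp signals 4493, 13494 and 18014. Prcd was detected in 1 of those 3 cells, at 1386 in D3. The part of photoreceptor RNA in the Lamp5, Lhfp and Prcd differences was not tested.

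Markers of the other cell types were 2 units apart over all cells in few cases. Of 6 tested Müller glia genes and 7 tested progenitor genes, 0 were 2 units apart, with medians of -0.13 and 0.62. Slc1a3, Aqp4 and Kcnj10 of Müller glia were not detected in any of the 23 cells. Of 4 bipolar genes 0 were 2 units apart, and Vsx1 and Trpm1 were not detected. Of 4 ganglion cell genes only Ebf1, which is on both lists, was 2 units apart, with a list median of -1.49, and Pou4f3, Rbpms, Slc17a6 and Isl2 were not detected. Of 3 horizontal cell genes tested 1 was 2 units apart, Tfap2b, which amacrine cells also express, with a median of 0.61. Within the P5 group with no culture stated, cell B4 had the most Müller glia and the most progenitor genes detected. It had 7 Müller glia genes and 7 progenitor genes detected, against 1 to 4 and 0 to 4 in the Gad1-only cells of the series, and it lacked Lamp5, Lhfp, Dab1, Drd2 and Vat1l. B1 had 5 Müller glia genes and 3 progenitor genes. A6, the cell of this group with both Gad1 and Slc6a9, had 6 and 1. The medians within this group were -2.95 and -2.24 for these lists. Their part in the within-group differences was not tested.

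Cells outside both sides were set against the named genes, 12 for each side. Gad1-only cells had 8 to 12 of the Gad1-side genes and 0 to 6 of the Slc6a9-side genes, and Slc6a9-only cells had 1 to 5 and 7 to 12, ranges that the choice of genes fixes. Cell A6, with both Gad1 and Slc6a9, had 8 of the Gad1-side and 3 of the Slc6a9-side genes. Its Lrrn3 signal was 37598 and its Kcnip1 signal 2695, while Lhfp, Lamp5 and Camkv were at the floor. Cell A2, with neither, also had 8 and 3. In A2 Lrrn3 was 26707, Kcnip1 12544 and Tfap2b 33717, and Lamp5 was 14841. Cell D6, just under the Slc6a9 threshold, had 3 and 6. D6 had Lhfp at 24534, Tcf4 at 9456, Ebf3 at 16581, Ebf1 at 10402 and Slc6a5 at 1345, and it lacked Lamp5, Drd2 and Lrrn3. Both A6 and A2 thus had more of the Gad1-side genes, and D6 more of the Slc6a9-side genes, although their own Gad1 and Slc6a9 signals did not place them on a side. The labelled group of A6 and A2 held 6 Gad1-only and 2 Slc6a9-only cells, and that of D6 held 1 and 3. Likeness to a labelled group therefore cannot be told apart from likeness to a side.

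**Figure D5:**
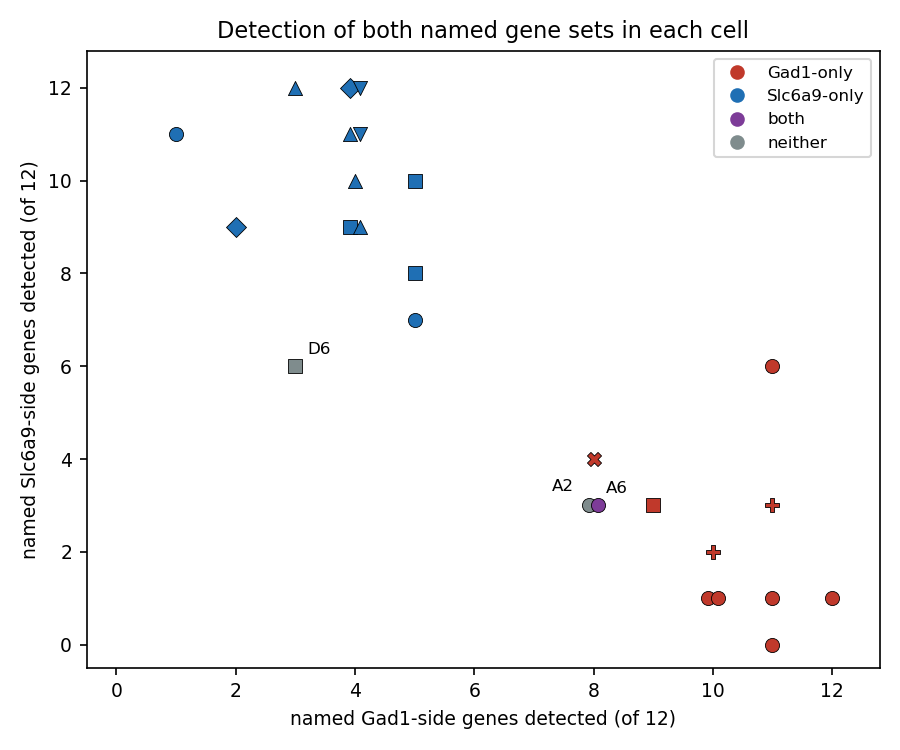
Number of the 12 named Gad1-side genes detected (horizontal axis) against the number of the 12 named Slc6a9-side genes detected (vertical axis) in each of the 26 cells; colour gives the side and marker shape the labelled group as in the plot of Gad1 against Slc6a9 signals, and points with the same counts are set slightly apart. The members are separated because the genes were chosen on them. Cells A6 and A2, both at 8 and 3, and D6, at 3 and 6, were not used in that choice. Other cells of their labelled groups were.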

How the data were processed

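Each of 26 cells was measured on 1 Affymetrix Mouse 430 2.0 array. The authors deposited linear intensity values per probe set, normalised by MAS5 (per the submitters' processing notes), of a version not given in the sources used here. Every array had a mean of 500 once 2% of its values were trimmed from either end, and no further scaling was done. Scripts ran in Python 3.11.15 with matplotlib 3.10.9, scipy 1.17.1, pandas 2.3.3 and numpy 2.4.6. Of 45101 probe sets, 34958 belonged to 1 gene, 932 to several and 9211 to none. Each of 18194 genes was read from its brightest probe set, by the mean of log2 signals raised to a floor of 200. Genes detected (signal at least 1000) in at least 2 of 23 cells entered (8353). Side means of log2 signals were subtracted, with no test.

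The sides, the 31 gene lists (453 genes, 411 measured) and the comparisons were chosen with earlier results of these data known. Named for each side were the 12 genes with the largest smaller value of 2 differences, over all cells and within the P5 pNdrg4 group that has no culture stated. They had the same sign in both and were detected in at least 60% of the higher side. Also named were the 6 genes per side furthest apart over all cells among those under 0.5 units, or of opposite sign, within that group. Clone-type symbols were left out. Further names were up to 4 per list, all genes of the GABA, glycine and pan-amacrine lists, the listed factors detected in at least 4 cells, and the 5 genes per side closest in detection by the phi coefficient. Genes named beyond these were chosen after their values were seen, such as those listed as not detected. Upstream windows matched 11 of the 12 genes named for each side. The calculation of side differences was tested on simulated data, namely shuffled signals with planted shifts. This checks its arithmetic only. Listed genes that had no probe set of their own were not used.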

Additional observations from a re-analysis of the deposited data

Results flagged for a closer look

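In 36 sets of values within a side, 12 held a cell far from the rest, where chance alone gives about 1 in 20. The count is not to be read against that rate, because 7 of the 12 are genes chosen for being low on the side examined, and the photoreceptor count of 1 cell was found in 2 overlapping sets. All 12 were on the Gad1-only side, since the 13 Slc6a9-only cells were too many to be checked as a whole. Cell P5 pNdrg4 B3 had 7 photoreceptor genes detected, apart from the other 9 Gad1-only cells and from the other 5 of its own labelled group with no culture stated.

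Low cells were found in 3 genes of the Gad1-only side. The log2 signal of Tubb3 was 10.54 in P4 pNdrg4 B4, that of Map2 9.23 in P5 pNdrg4 B3, and that of Dtnbp1 7.64, the floor, in P4 pNdrg4 A3. High cells were found in 7 genes of the Slc6a9-only side, each being the Gad1-only cell that had the gene. Lhfp was at 13.28 in P4 pNdrg4 A3 and Camkv at 10.68 in P4 pNdrg4 B4. Sesn1 at 11.21 and Ube2a at 13.69 were both in P5 pNdrg4 A7, and Kpna2 at 13.18 was in P5 pNdrg4 B2. The E19 pSynapsin cell B1 had Drd2 at 14.88 and Vat1l at 12.08. In each of these 7 genes the other 9 Gad1-only cells were below detection.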

How the results depend on the processing

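Counts past 2 log2 units moved with the settings. Over all cells, 61 Gad1-side and 300 Slc6a9-side genes became 40 and 154 with the median over probe sets, 169 and 807 with a floor of 50, 26 and 62 with a floor of 500, 171 and 1285 with medians over cells, and 460 and 467 as the mean of the 2 within-group differences. The Gad1-side count was 134 in P5 cells and 110 in pNdrg4 cells. Among P5 pNdrg4 cells without a stated culture, 499 and 1206 became 316 and 802 (median over probe sets), 987 and 1816 (floor of 50), and 251 and 661 (floor of 500), and the second was 1881 with medians over cells. In the cultured P5 group, 1524 became 832 with a floor of 500, and 866 became 574, 1430 and 453 with the median over probe sets and floors of 50 and 500. Leaving out 1 cell gave 60 to 82 and 278 to 403 over all cells, 539 to 1010 and 1203 to 2039 with no culture stated, and 1566 to 1683 and 1079 to 1103 in culture.

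The 24 named genes stayed at least 2 units apart over all cells in all 23 fits that left out 1 cell, and 17 of them did so under all 12 other settings. With no culture stated, 15 of 24 did so whichever cell was left out. The 24 were chosen for wide differences on these same cells, so these counts partly follow from that choice and are no independent check. Among differences of at least 2 units, those that changed sign were Nsmf over all cells, 1.88 as the mean of the 2 within-group differences, and the following with no culture stated. Without B1 and without B4, respectively, these were Sesn1 0.59 and -7.80, Dab1 0.91 and -5.26, Lamp5 0.61 and -6.25, Nrxn3 0.68 and -6.06, and Kcnd1 1.002 and -5.42 (0.31 with the median over probe sets). In the other direction they were Ccnd1 -4.88 and 0.14, Ebf3 -4.68 and 0.11, Mcm5 -5.04 and 0.55, Neurod4 -6.09 and 0.0515, and Septin4 -4.37 and 0.11. Smaller differences changed sign more often, under at least 1 setting in 42 of 99 over all cells and in 51 of 88 with no culture stated. The cause of these shifts was not tested. No paired analysis was possible because the labels give no replicate numbers and no pairs. Single-cell amplification leaves genes near the floor unranked.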
